A study of Sus scrofa with 13 samples.

Results

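Genes of the proteasome were read from porcine expression arrays of infarcted pig hearts, 4 months after injection of stem cells or of saline. All probe sets whose platform gene symbol begins with PSMA, PSMB, PSMC, PSMD, PSME, PSMF or PSMG were taken, which gave 46 probe sets of 40 genes, out of 6765 genes that the platform annotation names by a single symbol. Each gene is represented by its lead probe set, the one with the highest mean log2 intensity over the 13 arrays. Of the 46 probe sets, 46 passed the filter on dim signal, so 40 of 40 genes were tested. PSMB9 and PSMC4 have no probe set under their symbol in the annotation used and were not analysed here. The same holds for PSMA8, PSMB11, PSMD7, PSMD9, PSMG2, PSMG4 and PSMC3IP.

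The animals were small pigs of the Sinclair miniswine breed, all female. Their infarct was made at 3 months of age by tying off, for good, diagonal branches of the main artery to the front of the left ventricle. In the stem cell group (n = 7), 50000000 cells that the labels call MPCs were injected in 2 ml saline, 10000000 at each of 5 sites of the border zone of the infarct. The saline group (n = 6) had the same infarct and 2 ml saline at 5 sites. Drill biopsies of the heart were taken at month 4, their position relative to the infarct is not given per animal, and each animal gave 1 array of bulk tissue. The labels name no animals without an infarct.

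The proteasome is the chamber in which cells cut up proteins that have been tagged with ubiquitin. Its barrel-shaped core is built of stacked rings: alpha subunits (PSMA genes) gate the entrance, and beta subunits (PSMB genes) line the chamber and include the cutting sites. A regulatory cap, made of a base with ATP-driven unfoldase subunits (PSMC genes) and a lid (most PSMD genes), recognises and feeds in the substrates. Interferon induces replacement beta subunits, PSMB8, PSMB9 and PSMB10, and the activator subunits PSME1 and PSME2, which together make the immunoproteasome and favour peptides for antigen presentation. In heart muscle, where most cells do not divide, the complex takes part in the turnover of contractile proteins.

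Proteasome genes had mostly lower mean levels after stem cells, and the constitutive beta ring and the immunoproteasome had the largest negative medians. Of the 40 genes, 31 had a negative log2 difference (stem cells minus saline) and 9 a positive one. Among all 14399 probe sets tested 47.2% were negative, and among the 5196 genes with 1 probe set each 59.4% were. No proteasome gene passed an adjusted p of 0.05 (limma, over all probe sets), as was the case for all probe sets, where the share was 0%. At an unadjusted p under 0.05, 10 of the 40 genes were lower, against 5.15% of all probe sets, and 0 were higher, against 5.4%. Shares at that level were taken over probe sets only, not over genes with 1 probe set each. These 10 genes were PSMA5, PSMA7, PSMB1, PSMB2, PSMB3, PSMB4, PSMB5, PSMB6, PSMB8 and PSME2. Leaving out saline replicate 2 gave a count of 5 and leaving out saline replicate 3 one of 4, and 6 genes were lower when stem cells replicate 3 or replicate 4 was left out. For 0 of the 40 genes did the groups stay clear of each other. Over all probe sets, the groups did not overlap in 0.16% (lower after stem cells) and 0.118% (higher). In bulk tissue, fewer cells of a type and less RNA per cell cannot be told apart.

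The classes differed in the size of their medians, as the plot of differences by gene shows. The median log2 difference was -0.35 in the 7 constitutive beta ring genes and -0.48 in the 4 measured immunoproteasome genes. It was -0.10 in the 7 alpha ring genes, -0.06 in the 8 base genes and -0.06 in the 7 lid genes. The 4 assembly chaperones had a median of -0.01 and the 3 other regulators one of 0.13, beside 0.02 over all probe sets tested and -0.05 over genes. With 1 animal left out, the beta ring median ran from -0.43 to -0.31 and the immunoproteasome median from -0.57 to -0.39. The alpha ring median ran from -0.16, without saline replicate 5, to -0.07, and the base median from -0.10, without stem cells replicate 7, to -0.03, without saline replicate 3. The medians of 3 classes changed sign in such fits: that of the lid ran from -0.15 to 0.02, that of the chaperones from -0.06 to 0.07 and that of the other regulators from -0.02 to 0.32. Differences between classes were not tested.

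**Figure D1:**
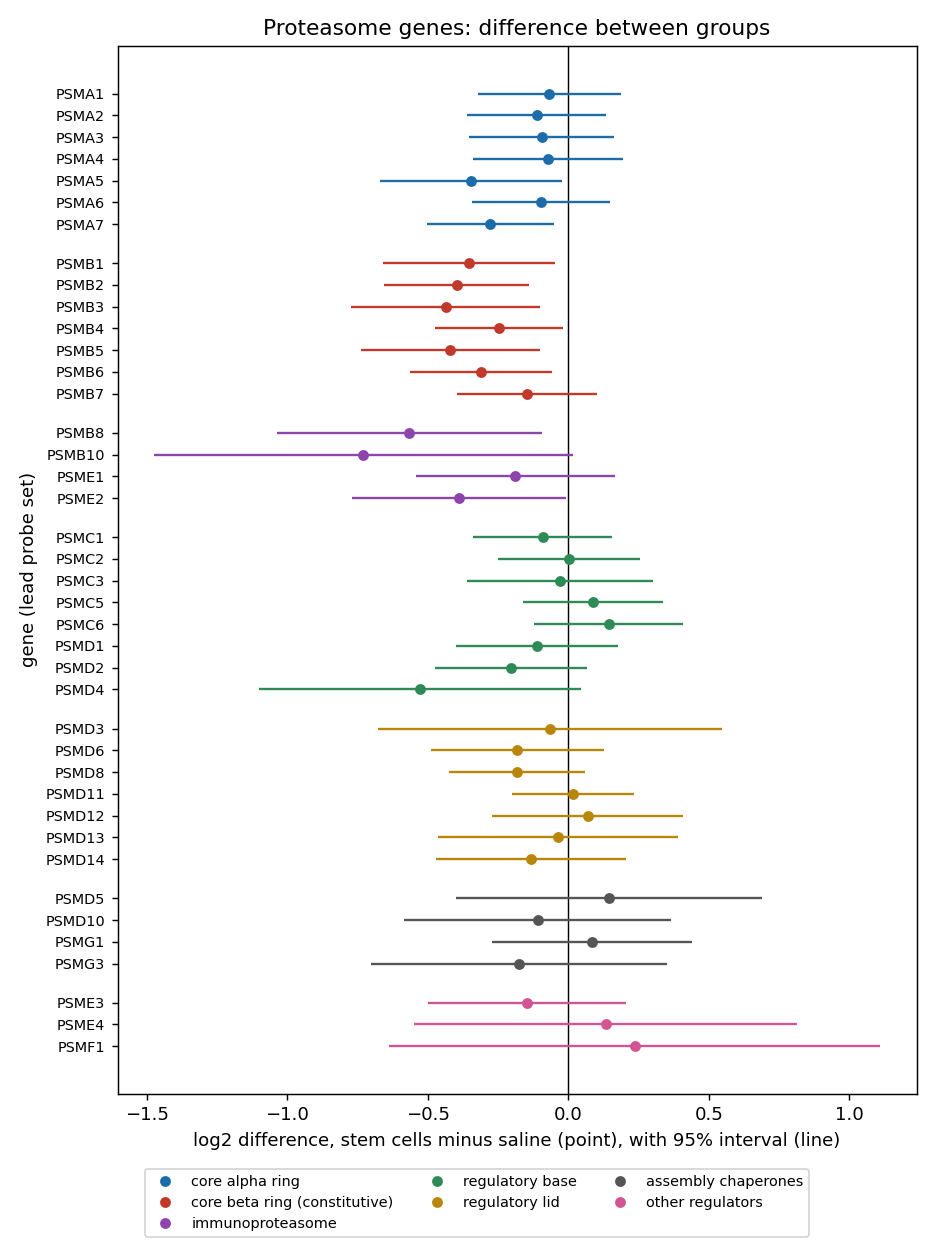
Log2 difference between stem cell and saline animals (horizontal axis, log2 units) for the lead probe set of each of 40 proteasome genes, grouped and coloured by class, with 95% intervals from the limma fit. In the constitutive beta ring 6 of 7 intervals lie below 0, while base, lid, chaperone and other regulator intervals all cross 0.

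In the constitutive beta ring 7 of 7 genes were negative and 6 of 7 were lower at an unadjusted p under 0.05, or 3 of 7 without saline replicate 3. Of all tested genes 59.4% were negative, and of all probe sets 5.15% were lower at that level. Averaged over its 7 genes, the ring stood at 10.01 ± 0.18 (SD, n = 6) log2 intensity after saline, with animals between 9.73 and 10.25. After stem cells it stood at 9.69 ± 0.18 (SD, n = 7), with animals between 9.44 and 9.94. Of the 7 stem cell animals, 7 lay below the saline median and 5 below the lowest saline animal.

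PSMB2, a structural subunit of the ring, had the smallest p of the 40 genes. Its log2 intensity lay between 10.61 and 10.94 after saline (median 10.77) and between 10.12 and 10.71 after stem cells (median 10.29). The ranges met only through stem cells replicates 1 and 7, at 10.62 and 10.71, and the other 5 stem cell animals lay below the lowest saline animal. The log2 difference was -0.40 ± 0.12 (SE), a ratio of 0.759, with a 95% interval of -0.66 to -0.14 and an adjusted p of 0.393 (limma).

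The subunits with cutting sites in the constitutive core are PSMB5, PSMB6 and PSMB7. PSMB5, which carries the chymotrypsin-like site, lay between 10.12 and 10.70 after saline (median 10.41) and between 9.47 and 10.41 after stem cells (median 10.01). Again 5 of 7 stem cell animals were below all saline animals, and stem cells replicate 4 was the lowest of the 13. The log2 difference was -0.42 ± 0.15 (SE; 95% interval -0.74 to -0.10; adjusted p of 0.42, limma). PSMB6, with the caspase-like site, lay between 11.33 and 11.74 after saline (median 11.48) and between 10.94 and 11.54 after stem cells (median 11.06). Here 4 stem cell animals were below all saline animals, and the log2 difference was -0.31 ± 0.12 (SE; adjusted p of 0.423, limma). PSMB7, with the trypsin-like site, overlapped most. Its values lay between 10.51 and 11.04 after saline (median 10.76) and between 10.49 and 10.87 after stem cells (median 10.61), with 1 stem cell animal below the lowest saline animal and a log2 difference of -0.15 ± 0.12 (SE; 95% interval -0.39 to 0.10), or -0.0937 without saline replicate 3.

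The remaining beta subunits are non-catalytic parts of the ring. PSMB1 lay between 10.70 and 11.31 after saline (median 11.21) and between 10.50 and 11.19 after stem cells (median 10.73), a log2 difference of -0.35 ± 0.14 (SE). PSMB4 lay between 11.39 and 11.87 (median 11.64) and between 11.29 and 11.59 (median 11.34), a log2 difference of -0.25 ± 0.11 (SE). In both genes the groups overlapped, with 3 and 4 stem cell animals below the lowest saline animal. PSMB3 had a log2 difference of -0.44 ± 0.16 (SE), with saline values between 3.43 and 4.29 (median 3.95) and stem cell values between 3.12 and 3.86 (median 3.43). Its probe set was dim: the mean of 3.66 over all arrays was close to the level of 3.36 that the filter required. The adjusted p of these 3 genes lay between 0.42 and 0.452 (limma).

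**Figure D2:**
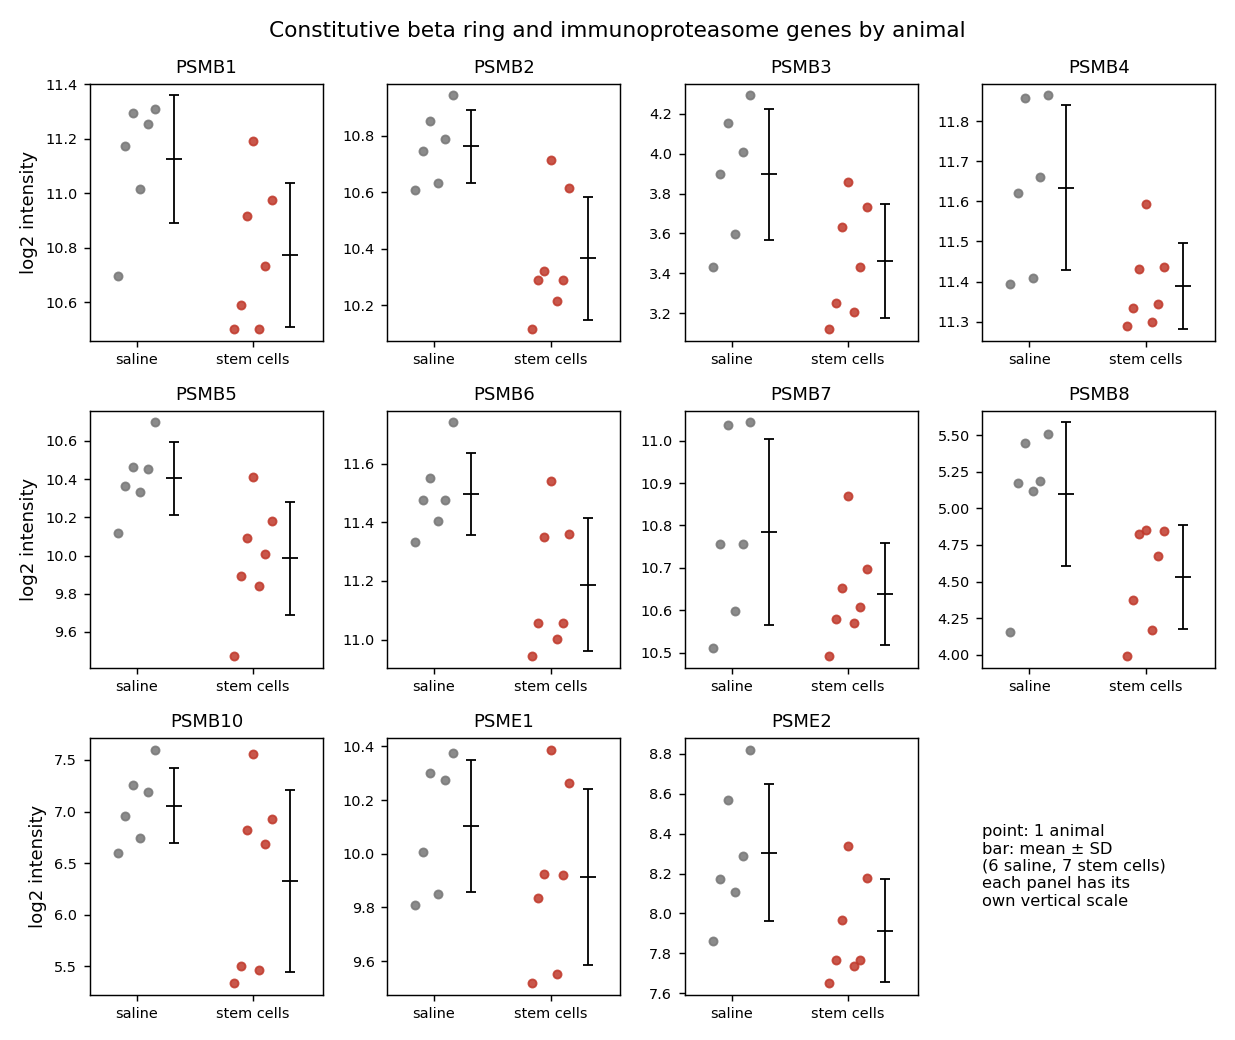
Log2 intensity (vertical axis, a separate scale in each panel) of 7 constitutive beta ring genes and 4 immunoproteasome genes in 6 saline and 7 stem cell animals; points are animals and bars are the mean ± SD. The groups overlap in each panel, and in PSMB2 and PSMB5 5 of 7 stem cell animals lie below the lowest saline animal.

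Among the alpha ring genes 7 of 7 were negative, 2 of them lower at an unadjusted p under 0.05. The shares beside these counts are 59.4% of genes negative and 5.15% of probe sets lower. PSMA7 lay between 11.63 and 12.15 after saline (median 11.91) and between 11.49 and 11.84 after stem cells (median 11.59). All 7 stem cell animals were below the saline median and 4 below the lowest saline animal, with a log2 difference of -0.28 ± 0.11 (SE; adjusted p of 0.423, limma). PSMA5 lay between 9.15 and 9.81 after saline (median 9.65) and between 8.99 and 9.67 after stem cells (median 9.16), and 3 stem cell animals lay below the lowest saline animal. Its log2 difference was -0.34 ± 0.15 (SE; adjusted p of 0.457, limma). PSMA1, PSMA2, PSMA3, PSMA4 and PSMA6 had log2 differences between -0.11 and -0.07 with 95% intervals that reached from -0.36 to 0.19 at their widest. In PSMA1, PSMA2, PSMA3 and PSMA4 saline replicate 5 had the lowest value of the 13 animals, shared in PSMA1 with a stem cell animal. Averaged over its 7 genes, the alpha ring stood at 11.04 ± 0.18 (SD, n = 6) after saline and 10.88 ± 0.13 (SD, n = 7) after stem cells, and no stem cell animal was below the lowest saline animal.

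Of the immunoproteasome, PSMB8, PSMB10, PSME1 and PSME2 were measured. All 4 were negative, and PSMB8 and PSME2 were lower at an unadjusted p under 0.05. Beside this, 59.4% of tested genes were negative and 5.15% of probe sets lower. Averaged over the 4 genes, saline animals lay between 7.37 and 7.95 and stem cell animals between 6.84 and 7.63. In this average 6 of 7 stem cell animals were below the lowest saline animal, the exception being stem cells replicate 5. Stem cells replicate 7 was only just below, at 7.36 against 7.37 in saline replicate 5. Gene by gene fewer lay below: 1 stem cell animal in PSMB8, 3 in PSMB10, 2 in PSME1 and 4 in PSME2.

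PSMB8, the inducible counterpart of PSMB5, lay between 4.15 and 5.51 after saline (median 5.18) and between 3.99 and 4.85 after stem cells (median 4.67). Its probe set was dim, with a mean of 4.79 over all arrays. Of the saline animals 5 began at 5.12, while replicate 6 stood at 4.15, with 1 of 7 stem cell animals below it. The log2 difference was -0.56 ± 0.22 (SE; 95% interval -1.04 to -0.09; adjusted p of 0.423, limma), and -0.75 without that animal. PSMB10, the counterpart of PSMB7, had the largest negative difference of the 40 genes and a wide spread after stem cells. It lay between 6.60 and 7.60 after saline (median 7.07) and between 5.34 and 7.56 after stem cells (median 6.69). Stem cells replicates 3, 4 and 6 stood at 5.50, 5.46 and 5.34, below all saline animals, while the other 4 lay between 6.69 and 7.56, within the saline range. The log2 difference was -0.73 ± 0.35 (SE; 95% interval -1.47 to 0.02; adjusted p of 0.482, limma).

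PSME1 and PSME2 encode the subunits of an activator ring that caps the core without ATP. PSME2 lay between 7.86 and 8.82 after saline (median 8.23) and between 7.65 and 8.34 after stem cells (median 7.77), with 4 stem cell animals below the lowest saline animal. Its log2 difference was -0.39 ± 0.18 (SE; adjusted p of 0.459, limma). PSME1 lay between 9.81 and 10.38 (median 10.14) and between 9.52 and 10.39 (median 9.92), and its log2 difference of -0.19 ± 0.17 (SE) had a 95% interval of -0.54 to 0.17 and was -0.122 without stem cells replicate 2. In the Sscrofa11.1 gene table PSME1 and PSME2 are separated by EMC9 alone, and PSMB8 stands between TAP2 and TAP1, with PSMB9 next to TAP1.

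Interferon-induced and antigen presentation genes were near balance as a list. Of 17 tested genes 8 were negative, 0 were lower and 2 were higher at an unadjusted p under 0.05, with a median log2 difference of 0.015. Over all probe sets 47.2% were negative, or 59.4% of genes, with 5.15% lower and 5.4% higher at that level. The 2 higher genes were MX2 and IFI44L, antiviral genes induced by type I interferon, at 0.81 ± 0.27 and 0.91 ± 0.43 (log2, SE). The largest negative differences of the list were those of GBP2 and GBP1, -0.66 ± 0.44 and -0.50 ± 0.31 (log2, SE). TAP1, the peptide transporter encoded beside PSMB8, was at -0.16 ± 0.32 and B2M, the light chain of class I molecules, at -0.03 ± 0.085. Leukocytes express the immunoproteasome constitutively, and their markers were lower on average: 10 of 12 tested were negative, 3 at an unadjusted p under 0.05, with a median of -0.27. Those 3 were TYROBP, AIF1 and ITGB2, at -0.76 ± 0.30, -0.65 ± 0.29 and -0.44 ± 0.19 (log2, SE). The shares beside the leukocyte counts are again 59.4% of genes negative and 5.15% of probe sets lower. The summed level of the 14 measured leukocyte markers lay between 10.89 and 11.68 (log2) after saline and between 10.44 and 11.54 after stem cells. The T cell markers CD3E and CD247 were below the filter. The part of leukocytes in the immunoproteasome values was not tested.

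Levels of immunoproteasome genes were also compared pairwise across the 13 animals, in 16 pairs with TAP1, TYROBP and the constitutive counterparts PSMB5 and PSMB7. PSME1 and PSME2 had a Pearson r of 0.662 (permutation p of 0.0143, adjusted 0.108) and a Spearman rho of 0.704 (permutation p of 0.00919, adjusted 0.0735). Without the 2 animals farthest from the PSME1 median, r was 0.64, and it was 0.612 after centring on the group means. PSMB10 had r of 0.658 with PSME2 and 0.377 with PSME1, and after centring 0.525 and 0.262. PSMB8 had r of 0.245 with PSMB10, -0.0598 with PSME1 and 0.488 with PSME2, and after centring -0.0632, -0.331 and 0.225. PSMB7 and PSMB10 had r of 0.632 (permutation p of 0.0202, adjusted 0.108) and rho of 0.746 (permutation p of 0.00467, adjusted 0.0735), with r of 0.528 without the 2 farthest animals and 0.54 after centring. PSMB5 and PSMB8 had r of 0.296 (permutation p of 0.33, adjusted 0.586) and rho of 0.445 (permutation p of 0.13, adjusted 0.313), with r of 0.144 without the 2 farthest animals and -0.161 after centring on the group means. TYROBP and PSMB10 had r of 0.554 (permutation p of 0.0472, adjusted 0.18) and rho of 0.369 (permutation p of 0.211, adjusted 0.423), and r was 0.0399 without the 2 farthest animals, on which the relation rests; after centring it was 0.377. With PSMB8, PSME1 and PSME2, TYROBP had r of 0.0777, 0.15 and 0.227, and after centring -0.406, -0.056 and -0.167. TAP1 and PSMB8 had r of 0.541 (permutation p of 0.0563, adjusted 0.18) and 0.578 after centring. Without the 2 animals farthest from the TAP1 median, r was 0.228. With PSMB10, PSME1 and PSME2, TAP1 had r of 0.382, -0.188 and 0.226, and after centring 0.367, -0.247 and 0.185. In none of the 16 pairs did an adjusted p pass 0.05.

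Of the 8 measured base genes 5 were negative, against 59.4% of tested genes. At an unadjusted p under 0.05, 0 were lower or higher, against 5.15% and 5.4% of all probe sets. The unfoldase subunits PSMC1, PSMC2, PSMC3, PSMC5 and PSMC6 had log2 differences between -0.09 and 0.14. PSMC6, the highest of these, lay between 11.61 and 12.02 after saline (median 11.94) and between 11.81 and 12.41 after stem cells (median 11.89), a log2 difference of 0.14 ± 0.12 (SE; 95% interval -0.12 to 0.41), or 0.0791 without stem cells replicate 2. PSMC2 has 3 probe sets, whose log2 differences were 0.00, -0.05 and 0.09, so that no direction can be given. The scaffold subunits PSMD1 and PSMD2 were at -0.11 ± 0.14 and -0.20 ± 0.13 (log2, SE), and the other probe set of PSMD1 was at -0.35 ± 0.17.

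PSMD4, the ubiquitin receptor of the base, stood apart within its class. Its log2 intensity lay between 8.99 and 9.85 after saline (median 9.58) and between 8.15 and 9.57 after stem cells (median 9.37). Stem cells replicates 2, 4 and 6 stood at 8.38, 8.15 and 8.33, and the other 4 lay between 9.37 and 9.57, inside the saline range. The log2 difference was -0.53 ± 0.27 (SE; 95% interval -1.10 to 0.05; adjusted p of 0.505, limma).

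Of the 7 measured lid genes with a PSMD symbol 5 had a negative difference, against 59.4% of tested genes. None passed an unadjusted p of 0.05, against 5.15% of all probe sets lower and 5.4% higher. SEM1, a lid subunit with another symbol, is given with the related genes. PSMD8 and PSMD6 had the largest differences, -0.18 ± 0.11 and -0.18 ± 0.14 (log2, SE). PSMD8 lay between 10.60 and 11.01 after saline (median 10.70) and between 10.40 and 10.81 after stem cells (median 10.54), with 5 of 7 stem cell animals below the lowest saline animal. PSMD14, which removes ubiquitin chains as substrates enter, was at -0.13 ± 0.16 (log2, SE) and had 3 stem cell animals below and 2 above the saline range. PSMD11 and PSMD12 were at 0.02 ± 0.10 and 0.07 ± 0.16, and the 2 other probe sets of PSMD11 at 0.13 and 0.09. PSMD3 and PSMD13 were at -0.06 ± 0.29 and -0.04 ± 0.20, with stem cells replicate 2 the lowest of the 13 animals in each, at 6.20 and 8.62.

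Chaperones that assemble the core (PSMG1, PSMG3) or the base (PSMD5, PSMD10) had log2 differences of 0.09 ± 0.17, -0.17 ± 0.25, 0.15 ± 0.26 and -0.11 ± 0.22 (SE). The alternative activators PSME3 and PSME4, found in the nucleus, were at -0.15 ± 0.17 and 0.13 ± 0.32. PSMF1, an inhibitor of the core, had the largest positive difference of the 40 genes, 0.24 ± 0.41 (SE; 95% interval -0.64 to 1.11), and varied most. It lay between 5.50 and 7.26 after saline (median 6.22) and between 5.20 and 7.89 after stem cells (median 6.50), so that the saline range lay within the stem cell range. Without stem cells replicate 5, the highest animal, the difference was 0.0009, and it was -0.41 with the EF1A 3' to 5' ratio, described further on, as a covariate.

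The median SD within groups was 0.249 in log2 units over the 40 genes and 0.321 over all probe sets tested. Saline replicate 3 held the highest value of the 13 animals in 12 genes and saline replicate 2 in 9. Stem cells replicate 4 held the lowest value in 11 genes, stem cells replicate 2 in 7 and saline replicate 5 in 7, with a tie counted once. The median deviation from the gene means was 0.28 in saline replicate 3, -0.19 in saline replicate 5 and -0.28 in stem cells replicate 4. Over all probe sets tested the same 3 arrays had medians of 0.004, -0.0632 and -0.0043. Stem cells replicate 2 was lowest in PSMB6, PSMC3, PSMD2, PSMD3, PSMD13, PSME1 and PSMF1. It was highest in PSMA1, PSMC6 and PSMD12, and its median deviation from the gene means was 0.0011. The same animal had the highest 3' to 5' ratio of the actin control probe sets, 5.03 (log2) against 1.61 to 4.20 in the other animals. Saline replicates 2 and 3, which held the highest value in 9 and 12 genes, came next, at 4.20 and 3.80. The GAPDH ratio was highest in saline replicate 2 and stem cells replicate 2, at 1.12 in each. The part of RNA integrity in these values was not tested.

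**Figure D3:**
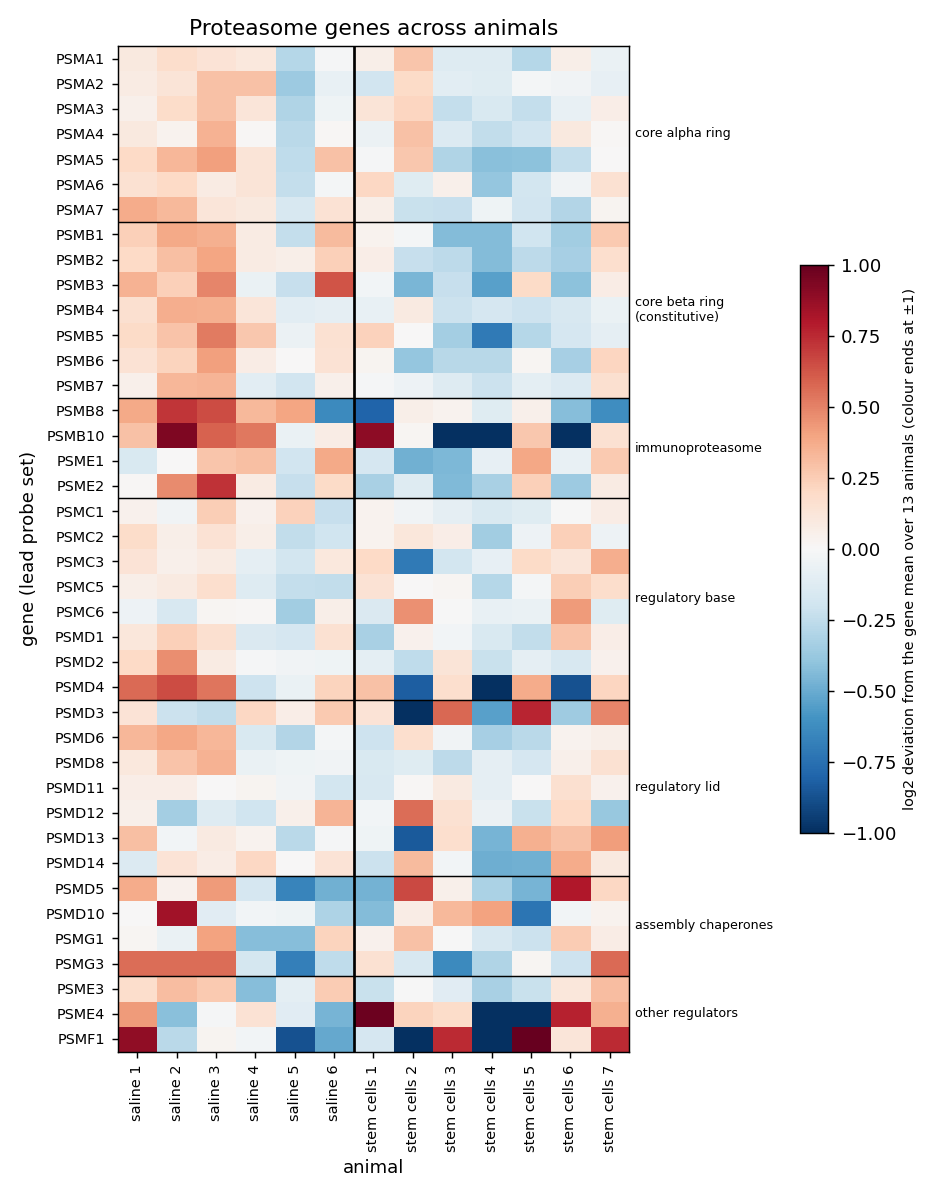
Deviation of each of 40 proteasome genes (rows, by class) from its mean over 13 animals, in log2 units (colour, ending at 1 either way), for 6 saline and 7 stem cell animals (columns). Saline replicates 1, 2 and 3 and stem cells replicate 7 are above the mean in most genes, with 3, 8, 4 and 8 of 40 below it. Saline replicate 5 is below it in 33 of 40, and stem cells replicate 4 is below it in 39 of 40.

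RNA integrity and gene length were read beside these differences. For EF1A, a control gene with probe sets at both ends, the 3' signal over the 5' signal was 0.947 ± 0.098 (SD, n = 6) in log2 units after saline and 0.815 ± 0.11 (SD, n = 7) after stem cells. The same ratio of GAPDH was 0.522 ± 0.33 and 0.535 ± 0.36, and that of actin 3.13 ± 0.74 and 2.89 ± 1.11, so that these groups differed by less than their spread. With the mean of the 3 ratios as a covariate, 10 proteasome genes and 6 beta ring genes were lower at an unadjusted p under 0.05, the same counts as without it. Over all probe sets 6.68% were lower in that fit. The actin ratio spread most between animals, so this mean mainly follows actin and cannot show how the counts depend on EF1A. With the EF1A ratio alone as a covariate, an alternative added after seeing the data, 7 proteasome genes and 3 beta ring genes were lower at an unadjusted p under 0.05. The share of all probe sets was 5.08%. The beta ring median was then -0.34, the lid median -0.24 and the immunoproteasome median -0.52. The median over the 40 genes was -0.23, against -0.12 without a covariate. In that fit 34 of the 40 genes were negative, against 51.9% of all probe sets. When tested genes were ranked by genomic span into 3 equal bins, 74.6% of other genes in the shortest bin were negative, with a median log2 difference of -0.17. Of the 40 proteasome genes 19 fell into that bin, 18 of them negative, with a median of -0.20. In the middle bin 10 of 16 were negative, with a median of -0.07 against -0.04 for other genes, and in the longest bin 3 of 5, with medians of -0.11 and 0.02. The beta ring had a median of -0.36 over its 4 genes in the shortest bin and -0.37 over PSMB1 and PSMB2 in the middle bin, and all 4 immunoproteasome genes lay in the shortest. The part of gene span in the differences was not tested.

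**Figure D4:**
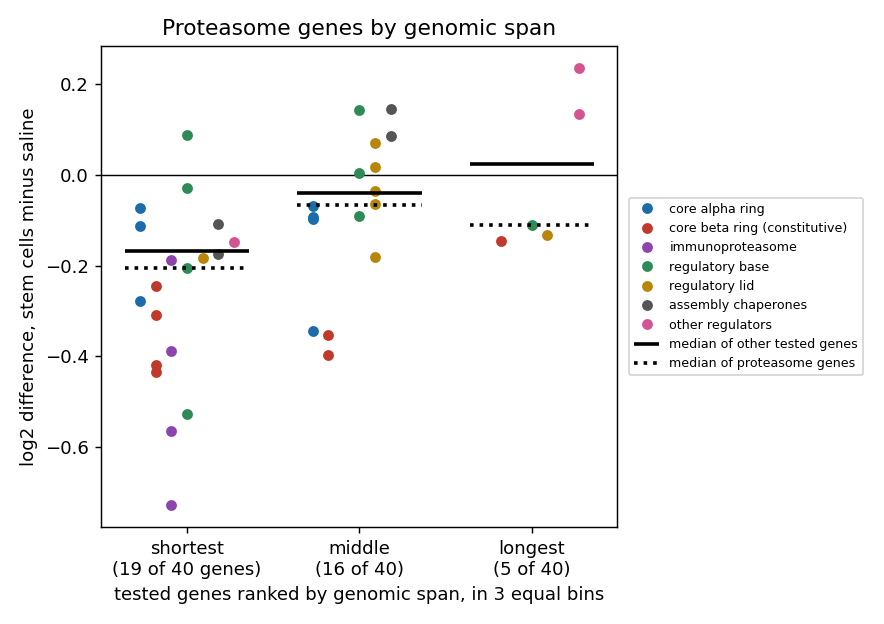
Log2 difference (stem cells minus saline, vertical axis) of each proteasome gene, coloured by class, in 3 equal bins of tested genes ranked by genomic span (horizontal axis); solid lines are medians of other tested genes and dotted lines medians of proteasome genes. In the shortest bin the medians are -0.17 and -0.20, and beta ring genes lie below the solid line in each bin.

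Other genes of the pathway were read from lists of ubiquitin supply, proteasome-bound factors, transcription of proteasome genes and muscle ubiquitin ligases. Of 21 tested genes in these lists 8 were negative, 3 were lower and 0 higher at an unadjusted p under 0.05, and 0 passed an adjusted p of 0.05 (limma). The count of 3 was 1 without saline replicate 6. Over all probe sets tested 47.2% were negative, or 59.4% of genes with 1 probe set each. At the same unadjusted level 5.15% of all probe sets were lower and 5.4% higher. SEM1, a small lid subunit whose symbol is outside the prefixes used, lay between 11.96 and 12.52 after saline (median 12.16) and between 10.91 and 12.15 after stem cells (median 11.76). Its log2 difference was -0.52 ± 0.19 (SE; adjusted p of 0.42, limma), and 4 stem cell animals lay below the lowest saline animal. CDC34, a ubiquitin-conjugating enzyme, and STUB1, a ligase that works with heat shock proteins, were at -0.50 ± 0.20 and -0.55 ± 0.22 (log2, SE). The unfoldase VCP was at -0.09 ± 0.13, the ubiquitin gene UBB at 0.02 ± 0.088 and the muscle ligase FBXO32 at 0.15 ± 0.30. TRIM55 and KLHL41, of the muscle ligase list, were at 0.31 ± 0.17 and 0.33 ± 0.19. Of the regulators of proteasome gene transcription only STAT3 had a named probe set, at -0.33 ± 0.25.

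The tissue label was checked against markers. Of 9 measured cardiomyocyte markers 2 were negative, against 59.4% of tested genes. Their summed level lay between 17.24 and 17.41 (log2) after saline and between 17.29 and 17.52 after stem cells. Fibroblast and collagen markers summed to between 13.54 and 15.22 after saline and between 13.57 and 15.17 after stem cells, and endothelial markers to between 11.83 and 12.44 and between 11.66 and 12.39. The lowest correlation between 2 arrays was 0.936 and the highest 0.986, and none held the values of another. The labels give no batch or date.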

How the data were processed

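RNA of 13 heart biopsies, 6 saline and 7 stem cells, was measured on 1 Affymetrix porcine array per animal. Each deposited value is the linear intensity of a probe set. The authors used GCRMA, as the submitters' processing notes name it, with no version or settings in the sources used here. It normalizes between arrays and so removes a shift common to most genes.

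The 124 control probe sets were left out and the other 23999 put on the log2 scale. Probe sets with a mean above the 40th percentile (3.36) were tested, 14399 in all. Of the 23999, 10069 had 1 symbol, 198 several and 13732 none; 0 member symbols changed when matched by gene ID to the Sscrofa11.1 table. Stem cells were compared with saline in R 4.3.3 with limma 3.58.1 (lmFit, eBayes with trend), with Benjamini-Hochberg adjustment over all probe sets and 95% intervals. The fit was tested on simulated data with the means and residual SDs of these arrays. At an adjusted p under 0.05 it recovered 21.5% of added changes of 0.5 log2 units, 70.4% of 1 and 96.4% of 2. Most changes of 0.5 log2 units were thus missed. Levels of different probe sets are not comparable. Means over a class describe its probe sets and were not tested. Correlations used 100000 permutations (numpy 2.4.6). The number of arrays limits precision: the median 95% interval of the members reached 0.313 to either side.

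Genes named in full were those at an unadjusted p under 0.05, the immunoproteasome, PSMB5 to PSMB7, extremes of mean and difference, and genes whose probe sets disagreed in sign. PSMD4, PSMD8 and SEM1 were chosen after their values were seen. Members, lists and tests were chosen with earlier results of these data known. Replicate numbers occur in both groups and are not said to pair animals; p-values measure the spread between animals. Alternatives were other filters, normalizations, variance models, covariates, a replicate block and leaving out each animal. No reference sequences were used here.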

Additional observations from a re-analysis of the deposited data

Results flagged for a closer look

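2 of 94 groups of values, over 40 genes and 7 class averages in each treatment group, had an animal whose gap to its nearest neighbour was large for the range of its group. Chance flags about 1 in 20 groups, so this count is below that rate. PSMB8 was at a log2 intensity of 4.15 in saline replicate 6, the nearest saline animal being at 5.12. PSMD10, a base chaperone, was at 6.85 in saline replicate 2, the nearest saline animal being at 6.01.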

How the results depend on the processing

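Under each alternative run, 0 proteasome genes and 0 genes of the related ubiquitin lists passed an adjusted p of 0.05, or of 0.10 with all animals. Between 29 and 34 of the 40 genes had a negative difference (30 of 39 with the filter at the 60th percentile, which dropped PSMB3). With 1 animal left out, the count of proteasome genes lower at an unadjusted p under 0.05 ran from 4 to 12, that of beta ring genes from 3 to 6, and that of related ubiquitin genes from 1 to 3. With the EF1A 3' to 5' ratio as a covariate, beta ring genes at that level numbered 3, the lid median was -0.236, and PSMF1 turned to -0.406; the cause was not tested. PSMC2 lay near 0 and changed sign with several settings: it was -0.0075 with centring on the array median, -0.0108 with the tissue makeup covariate, -0.0463 with array weights, -0.0495 with the EF1A ratio, and from -0.0451 to 0.0615 with 1 animal left out. The other genes run under the alternatives (PSMA5, PSMA7, PSMB1 to PSMB8, PSMB10, PSMC6, PSME1 and PSME2) kept their sign; further genes named in the text were not run singly. With the replicate number as a block, over 12 animals, 10 proteasome genes were lower at an unadjusted p under 0.05, 5 of them in the beta ring, and the beta ring median was -0.42. Same-numbered animals did not deviate together (correlations of -0.266 to 0.237, 1 of 6 over 0.1), so the numbers were not taken as pairs. Dim probe sets such as those of PSMB3 and PSMB8 limit what can be read from their size.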
